A study of Mus musculus with 24 samples.

Results

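Prolactin and growth hormone act on mammary epithelium through a short relay of proteins, and the genes of that relay were followed here across sorted cells of the pubertal mouse mammary gland. The 7 genes were the receptors Prlr and Ghr, the kinase Jak2, the transcription factors Stat5a and Stat5b, and the feedback inhibitors Cish and Socs2. They were taken by name, through the Entrez identifiers of the count table, which lists 27179 genes. All 7 passed the filter on low counts.

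The libraries came from pubertal mice, 24 in all, in 12 groups of 2. Each group is a sorted population from terminal end buds (TEBs, from which the pubertal ductal tree grows) or from ducts, which were microdissected apart. Lineage-negative EpCAM+ cells were sorted into a CD29-high basal gate and a CD29-low luminal gate. One mouse model carried Elf5-rtTA-IRES-GFP and gave basal cells and luminal cells that were GFP-positive or GFP-negative. The other carried PR-cre and Rosa26-LSL-eYFP, a reporter silent until Cre removes its stop, and gave basal cells and luminal cells that were YFP-positive or YFP-negative. Every animal therefore carried a reporter allele, and libraries from mice without one were not analysed here. GFP reports the activity of the Elf5 construct, Elf5 being a transcription factor of the luminal progenitor lineage, whereas YFP marks cells in which the PR-driven Cre has acted at some time, PR being the progesterone receptor of hormone-sensing luminal cells. The labels give no exact age, and whether replicate libraries are separate animals is not said, so that p-values reflect the variation between libraries, which may be technical.

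As background, prolactin binding pairs Prlr chains at the cell surface, and growth hormone binding does the same for Ghr. Both receptors lack kinase activity of their own and use the bound tyrosine kinase JAK2, which phosphorylates STAT5A and STAT5B. Phosphorylated STAT5 enters the nucleus and binds a palindromic DNA motif, and among its targets are Cish and Socs2, whose products damp the receptors. In the mouse mammary gland Prlr and Stat5a are known for their part in alveolar development and milk production, and stromal Ghr for its part in ductal growth at puberty. RNA levels report neither hormone exposure nor STAT5 phosphorylation.

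Total counts per library were between 31264622 and 52495208. The gates carried their markers. Elf5 had between 697 and 1660 CPM (counts per 1000000 counts of the library, after TMM scaling) in GFP-positive libraries, against 26.9 to 68.2 CPM in GFP-negative libraries. Pgr, the progesterone receptor gene, had between 332 and 476 CPM in YFP-positive libraries, against 13.2 to 39.4 CPM in YFP-negative libraries. A pair of libraries stood apart: the summed level of 12 keratinocyte genes was 2400 CPM in replicate 2 of GFP-negative ducts and 486 CPM in replicate 2 of YFP-negative TEBs, and between 7.59 and 79.3 CPM in the other 22. Values without them are given beside the results that they moved most.

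**Figure D1:**
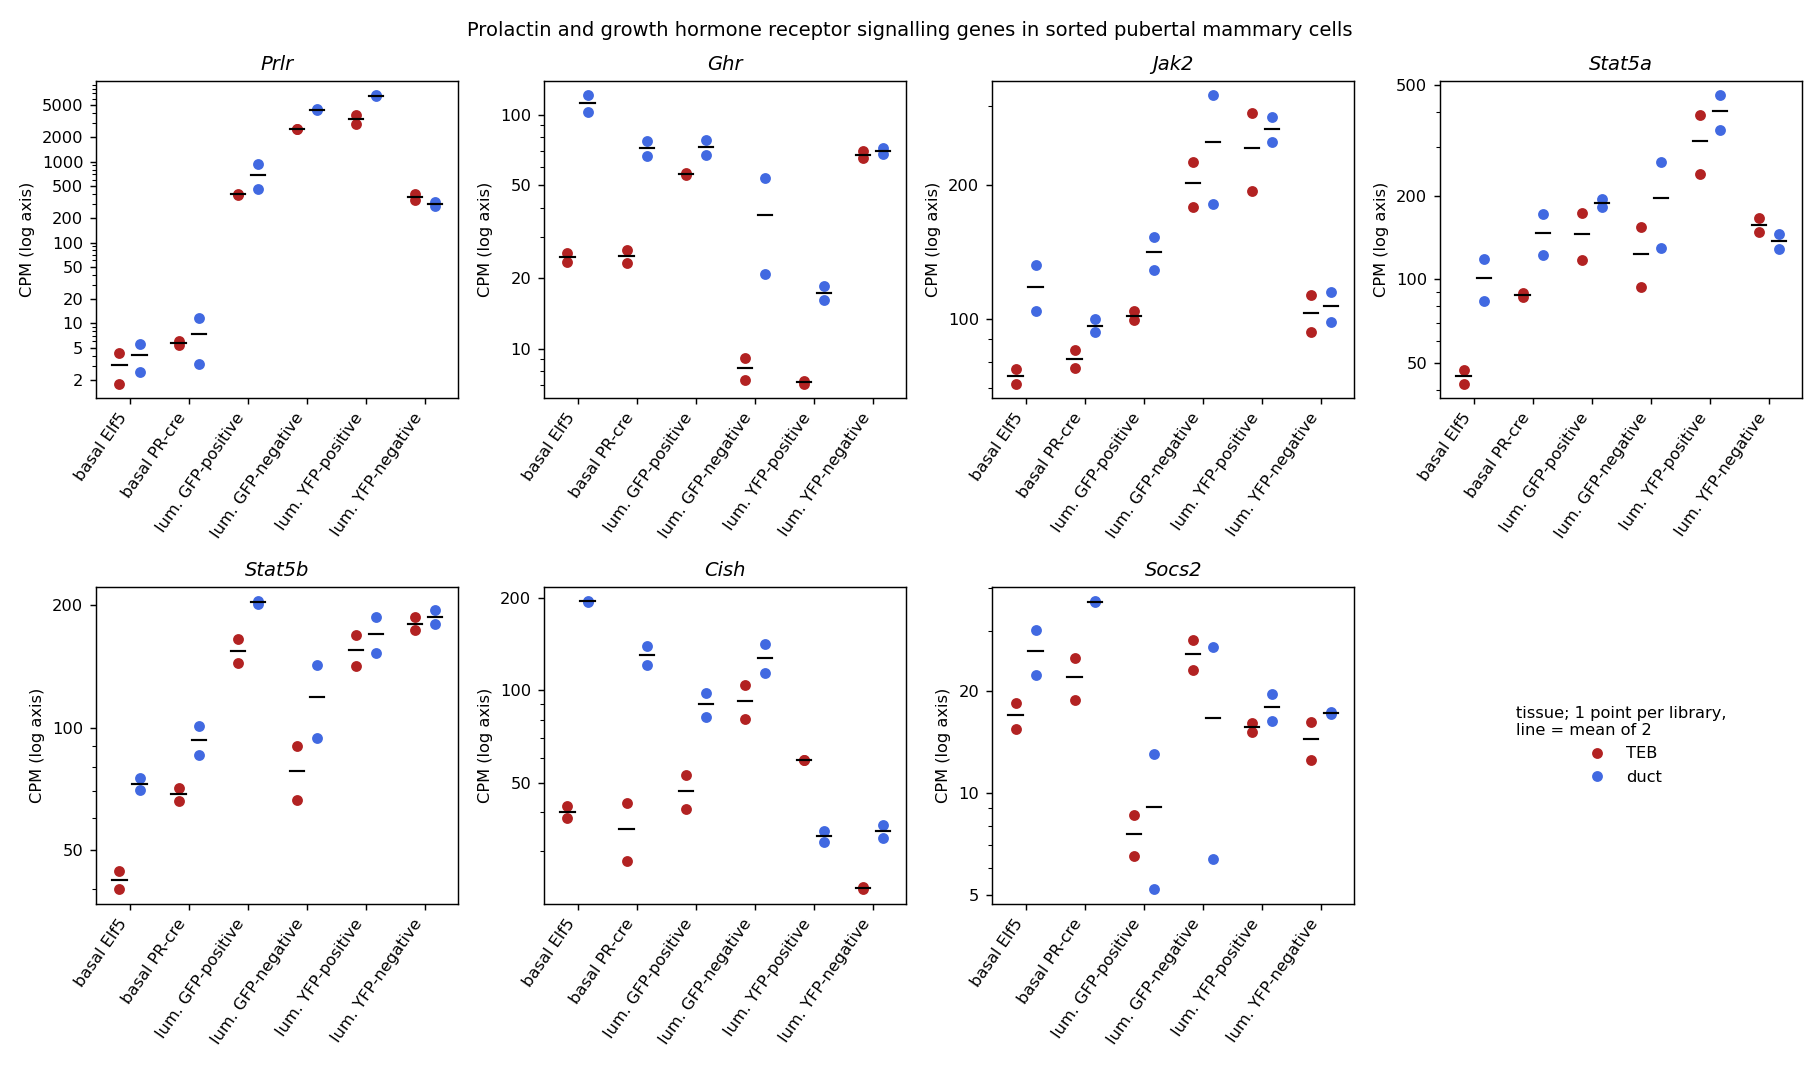
Level of each of the 7 genes in every library, in CPM on log axes with a separate range per panel. Each point is 1 library, black lines are means of 2, and the 6 sorted populations run along the horizontal axis with TEBs (red) left of ducts (blue). Prlr spans from 1.8 to 6620 CPM, whereas Jak2 stays between 71.6 and 317 CPM.

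The members differed greatly in how far their levels ranged. Per length, in counts per kilobase of the deposited gene length per 1000000 counts (RPKM) averaged over the 24 libraries, Prlr had 116, Stat5a 44, Cish 35, Jak2 29.5, Stat5b 23.4, Ghr 10.7 and Socs2 6.96. This order does not hold within gates: in the 4 basal groups Prlr was the lowest member, with group means of 0.229 to 0.56 RPKM, while Cish had 16.4 to 90.1 and Stat5a 11.5 to 37.9 RPKM. The highest group mean of Prlr was 2130 times its lowest in CPM. The same ratio was 15.6 for Ghr, 9.01 for Stat5a, 8.59 for Cish, 4.86 for Socs2, 4.83 for Stat5b and 3.58 for Jak2. The receptors thus varied most and their shared kinase least.

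Prlr, the prolactin receptor gene, lies on chr15:10177238-10349190 of GRCm38. It was a luminal transcript that was highest in the hormone-sensing gates. YFP-positive luminal cells had 2960 and 3750 CPM in TEBs and 6460 and 6620 CPM in ducts. YFP-negative luminal cells had 332 and 404 CPM in TEBs and 280 and 320 CPM in ducts. In the other model, GFP-positive cells had 387 and 404 CPM in TEBs and 460 and 927 CPM in ducts, against 2530 and 2570 CPM in GFP-negative TEBs and 4340 and 4480 CPM in GFP-negative ducts. All 8 libraries of the GFP-negative and YFP-positive gates were above all 8 of the GFP-positive and YFP-negative gates. Basal cells had 1.8 and 4.35 CPM (Elf5 model) and 5.34 and 6.05 CPM (PR-cre model) in TEBs, and 2.48 and 5.62 CPM and 3.18 and 11.8 CPM in ducts. Every basal library was thus below every luminal library, although each held at least 72 counts of Prlr, above the 3 counts taken as the detection floor.

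Tested with edgeR's quasi-likelihood test over all 18109 genes, with Benjamini-Hochberg adjustment and calls at an adjusted p under 0.05, Prlr was higher in YFP-positive than in YFP-negative cells by 3.82 ± 0.39 on the log2 scale (standard error, 14.1-fold, adjusted p = 1.6e-06). It was lower in GFP-positive than in GFP-negative cells, at -2.68 ± 0.37 (6.4-fold, adjusted p = 3.65e-05). In basal against luminal cells it was lower by a fitted 268-fold, at -8.07 ± 0.33 (adjusted p = 2.08e-11). The order of the 12 group means was YFP-positive ducts, GFP-negative ducts, YFP-positive TEBs, GFP-negative TEBs, GFP-positive ducts, GFP-positive TEBs, YFP-negative TEBs, YFP-negative ducts, and then the 4 basal groups. Neighbours whose libraries overlapped were GFP-positive and YFP-negative TEBs, and all neighbouring basal groups. In bulk libraries, fewer cells of a type and less RNA per cell cannot be told apart.

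TEB libraries of the hormone-sensing gates had lower Prlr values than their ducts without a call. Over the GFP-negative and YFP-positive gates together the TEB-minus-duct difference was -0.88 ± 0.35 (adjusted p = 0.0859 by edgeR's quasi-likelihood test), and over all 4 luminal gates it was -0.57 ± 0.25 (adjusted p = 0.0867). DESeq2 called both differences, with adjusted p = 0.0388 and 0.0454, as did the edgeR fit to the compared groups alone, with adjusted p = 0.00188 and 0.00246. All 4 TEB libraries of these gates were below all 4 duct libraries. The basal value was -0.39 ± 0.38 (adjusted p = 0.442).

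Promoter windows of 300 bases, from 250 before to 50 after each RefSeq start site of GRCm38.p6, were searched for TTCNNNGAA, the palindromic STAT5 motif, which reads the same on both strands. Windows were available for 6 of the 7 members, 11 windows in all, and Prlr has 3 of them. The window at its middle start site holds the motif once, 110 to 102 bases upstream of that start on the plus strand. It is shown, in capitals, because Prlr is here both the entry point of the relay and the member with the widest range.

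Prlr, chr15:10223781-10223820, plus strand: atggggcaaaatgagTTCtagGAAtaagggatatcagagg

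Of 32851 such windows over all genes, 8.3% hold at least 1 copy, so a single copy is common. The match is a description of the letters, and no binding was measured.

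Ghr, the growth hormone receptor gene (chr15:3317755-3583352), had nearly the reverse layout among luminal gates, and it was also present in basal cells. GFP-positive cells had 55.4 and 56.3 CPM in TEBs and 67.6 and 78.3 CPM in ducts, against 7.35 and 9.1 CPM in GFP-negative TEBs and 20.9 and 53.8 CPM in GFP-negative ducts. YFP-positive cells had 7.09 and 7.26 CPM in TEBs and 16.1 and 18.6 CPM in ducts, against 65.1 and 70.1 CPM in YFP-negative TEBs and 68.1 and 72.3 CPM in YFP-negative ducts. All 8 libraries of the GFP-positive and YFP-negative gates were above all 8 of the other luminal gates. The closest approach came from the GFP-negative duct library with keratinocyte transcripts, which is the one at 53.8 CPM. Ghr was higher in GFP-positive than in GFP-negative cells by 1.87 ± 0.20 (3.64-fold, adjusted p = 1.08e-06; 2.27 without the keratinocyte-bearing libraries) and lower in YFP-positive than in YFP-negative cells, at -2.63 ± 0.20 (6.17-fold, adjusted p = 2.89e-08).

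**Figure D2:**
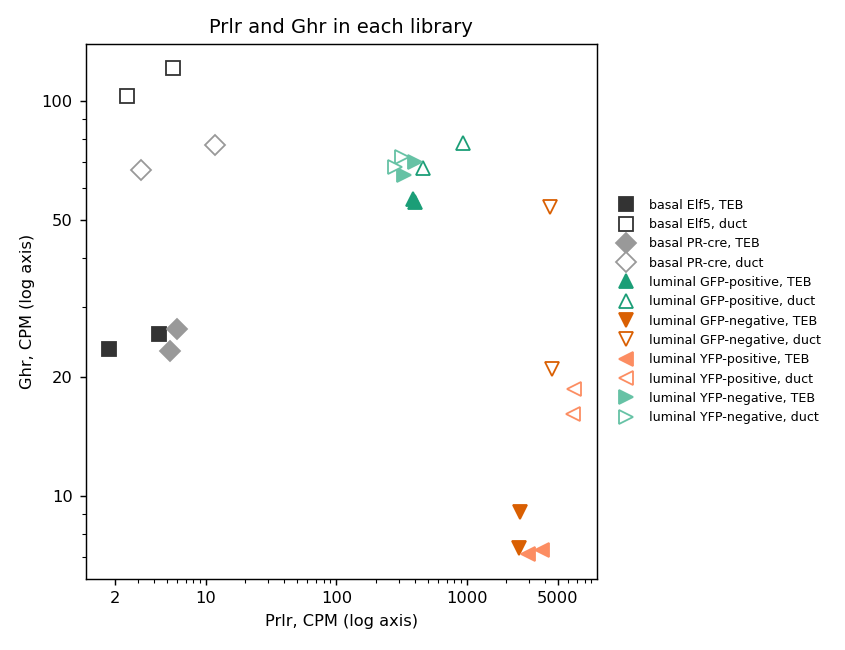
Prlr against Ghr in each of the 24 libraries, both in CPM on log axes, with filled symbols for TEBs and open symbols for ducts. The GFP-negative and YFP-positive libraries lie at the right and low, apart from 1 GFP-negative duct library at 53.8 CPM of Ghr, the GFP-positive and YFP-negative libraries in the middle and high, and basal libraries at the left, with basal TEBs at 23.2 to 26.5 CPM of Ghr and basal ducts at 66.8 to 121 CPM.

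Ghr fell in TEBs in basal cells and in the hormone-sensing luminal gates, and no change was called in the other luminal gates. Basal TEBs had 23.5 and 25.7 CPM (Elf5 model) and 23.2 and 26.5 CPM (PR-cre model), against 103 and 121 CPM and 66.8 and 77.2 CPM in basal ducts. The groups did not overlap in either model. The basal difference was -1.86 ± 0.20 (3.63-fold lower, adjusted p = 1.76e-06), with -2.18 ± 0.28 in the Elf5 model and -1.53 ± 0.28 in the PR-cre model (adjusted p = 2.49e-05 and 0.000769). Over the GFP-negative and YFP-positive gates it was -1.73 ± 0.20 (3.31-fold lower, adjusted p = 2.7e-05), and -1.33 without the libraries that hold keratinocyte transcripts. Over the GFP-positive and YFP-negative gates it was -0.22 ± 0.19 (adjusted p = 0.42).

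These effects of TEB origin on Ghr differed from each other when tested as interaction terms in edgeR's quasi-likelihood fit. The effect over GFP-positive and YFP-negative gates minus that over GFP-negative and YFP-positive gates was 1.51 ± 0.27 (adjusted p = 0.00247), and it was 1.13 without the libraries that hold keratinocyte transcripts. The basal effect minus the luminal effect was -0.88 ± 0.24 (adjusted p = 0.0106), and it was -1.1 without those libraries. Within GFP-negative cells alone the TEB effect was -2.18 ± 0.29 (adjusted p = 0.000151), and it was -1.35 without the keratinocyte-bearing library. That call was not made in a fit to the compared groups alone (adjusted p = 0.121).

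Basal cells had more Ghr than luminal cells on the log2 scale averaged over groups, by 0.63 ± 0.12 (adjusted p = 0.000137), the direction opposite to that of Prlr. In TEBs alone the mean was 24.7 CPM in basal libraries and 34.7 CPM in luminal libraries, and in ducts 91.9 CPM in basal libraries and 49.5 CPM in luminal libraries. The tissues were not tested apart. Fibroblast markers summed to 750 to 1690 CPM in basal TEBs and 891 to 1560 CPM in basal ducts. In luminal TEBs and ducts they summed to 16.2 to 174 and 24.6 to 135 CPM. The part of fibroblast RNA in the basal Ghr values was not tested. By group mean, basal Elf5 ducts were highest, followed by GFP-positive ducts, basal PR-cre ducts and YFP-negative ducts, whose libraries overlapped in turn, and then by YFP-negative TEBs, which overlapped with YFP-negative ducts. GFP-negative and YFP-positive TEBs were lowest. Across the 12 group means of log2 CPM, Prlr and Ghr had a Pearson correlation of -0.45, given as a description, since groups share a mouse model and a sort.

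Jak2, the tyrosine kinase bound by both receptors (chr19:29251803-29313095), followed the layout of Prlr among luminal gates over a much narrower range. Unlike for Prlr, basal and luminal libraries overlapped, at 71.6 to 132 CPM and 93.6 to 317 CPM. YFP-positive cells had 194 and 289 CPM in TEBs and 249 and 283 CPM in ducts, against 93.6 and 113 CPM in YFP-negative TEBs and 98.4 and 115 CPM in YFP-negative ducts. GFP-positive cells had 99.4 and 104 CPM in TEBs and 129 and 153 CPM in ducts, against 178 and 225 CPM in GFP-negative TEBs and 181 and 317 CPM in GFP-negative ducts. The gates of each model did not overlap. Jak2 was higher in YFP-positive than in YFP-negative cells by 1.27 ± 0.16 (2.42-fold, adjusted p = 6.77e-06), lower in GFP-positive than in GFP-negative cells, at -0.90 ± 0.16 (adjusted p = 0.00023), and lower in basal than in luminal cells, at -0.84 ± 0.10 (adjusted p = 1.48e-06). Basal TEBs had between 71.6 and 85 CPM, against 93.2 to 132 CPM in basal ducts, a difference of -0.46 ± 0.16 (adjusted p = 0.03). This last call was lost in 14 of the 30 other settings, with adjusted p up to 0.167.

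Stat5a and Stat5b are neighbouring genes whose proteins are close relatives, and they were distributed differently over the luminal gates. Stat5a (chr11:100859351-100885169) had 240 and 392 CPM in YFP-positive TEBs and 346 and 460 CPM in YFP-positive ducts, against 148 and 167 CPM in YFP-negative TEBs and 129 and 146 CPM in YFP-negative ducts. It was higher in YFP-positive cells by 1.28 ± 0.24 (2.42-fold, adjusted p = 0.000431), and the gates did not overlap. In the Elf5 model it had 118 and 173 CPM in GFP-positive TEBs and 183 and 195 CPM in GFP-positive ducts, against 93.6 and 154 CPM in GFP-negative TEBs and 130 and 264 CPM in GFP-negative ducts, which overlapped, with a difference of 0.09 ± 0.24 (adjusted p = 0.821). Stat5b (chr11:100780731-100859004) showed its difference in the Elf5 model instead. It had 144 and 165 CPM in GFP-positive TEBs and 202 and 205 CPM in GFP-positive ducts, against 66.3 and 90.1 CPM in GFP-negative TEBs and 94.5 and 143 CPM in GFP-negative ducts. This was a difference of 0.88 ± 0.12 (1.84-fold, adjusted p = 1.55e-05; 0.73 without the keratinocyte-bearing libraries), while YFP-positive minus YFP-negative cells gave -0.18 ± 0.12 (adjusted p = 0.25).

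Because GFP-negative and YFP-positive cells are the matching sides of the 2 models, the signed differences of the models were also compared, a comparison added after the data were seen. The difference YFP-positive minus YFP-negative, less the difference GFP-negative minus GFP-positive, was 1.37 ± 0.34 for Stat5a (adjusted p = 0.0208) and 0.70 ± 0.17 for Stat5b (adjusted p = 0.0167), and no other member was called. For Stat5b the larger of the 2 differences was that of the Elf5 model. In this comparison 9.26% of all genes were called. The Stat5a call was lost in 9 of 30 other settings, among them the fit without the keratinocyte-bearing libraries (1.11, adjusted p = 0.0649), and the Stat5b call in 1, with 0.54 and an adjusted p of 0.0495 without those libraries. Model and preparation cannot be told apart in this difference.

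**Figure D3:**
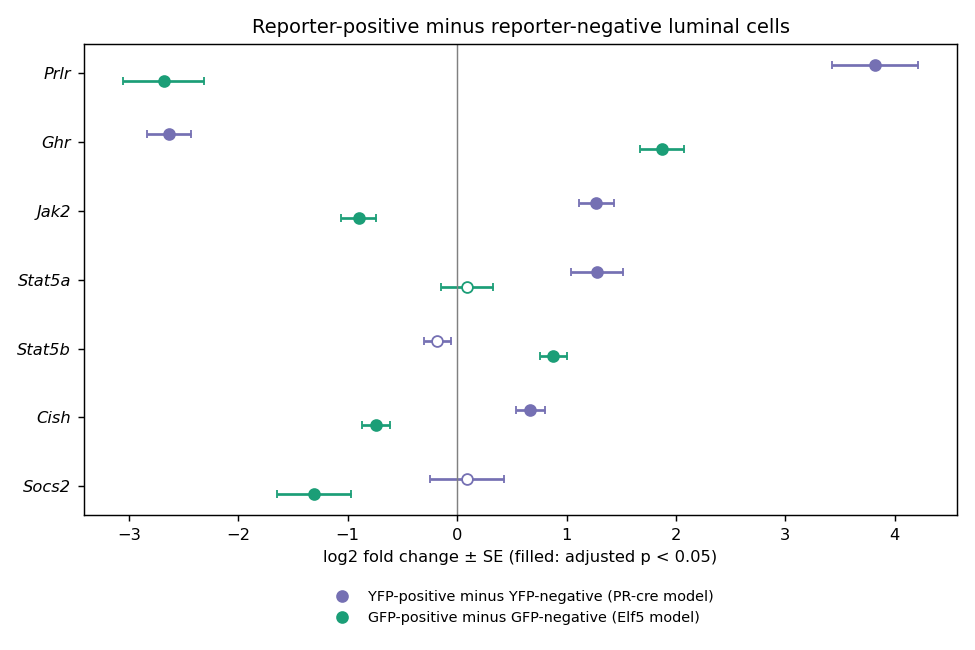
Log2 fold change with its standard error for reporter-positive minus reporter-negative luminal cells, in the PR-cre model (purple) and the Elf5 model (green), for each member. Filled points passed an adjusted p of 0.05. Prlr, Jak2 and Cish are to the right in the PR-cre model and to the left in the Elf5 model, Ghr is the reverse, and Stat5a, Stat5b and Socs2 each passed in 1 model.

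The share of Stat5a in the combined Stat5a and Stat5b counts of a library does not depend on scaling. In the 8 GFP-positive and YFP-negative libraries it ran from 39.8% to 51.1%, with a median of 46.6%, and in the 8 GFP-negative and YFP-positive libraries from 58% to 71.1%, with a median of 63.9%. The sides did not overlap. The means were 46.3% ± 3.3 and 64.7% ± 5.1 (SD, n = 8 each), a difference of -18.4 percentage points (exact two-sided permutation test, p = 0.000155, the smallest it can give). Libraries of different gates may share a preparation, so n counts libraries, not animals. The share averaged 56.6% ± 4.3 in basal libraries (n = 8) and 55.5% ± 10.4 in luminal libraries (n = 16), where the exact permutation test gave p = 0.768. In basal TEBs it averaged 53.8% ± 2.9, against 59.4% ± 3.7 in basal ducts (n = 4 each, exact permutation test, p = 0.0857, with 0.0286 the smallest possible). The share was higher in replicate 1 than in replicate 2 of every group, which these permutation tests ignore. In replicate 1, basal TEBs had 51.6% against 61.2% in ducts (Elf5 model) and 57.4% against 63.1% (PR-cre model). In replicate 2 they had 51.4% against 54.4% and 54.9% against 58.9%. A test that takes replicate number into account was not run for the share.

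**Figure D4:**
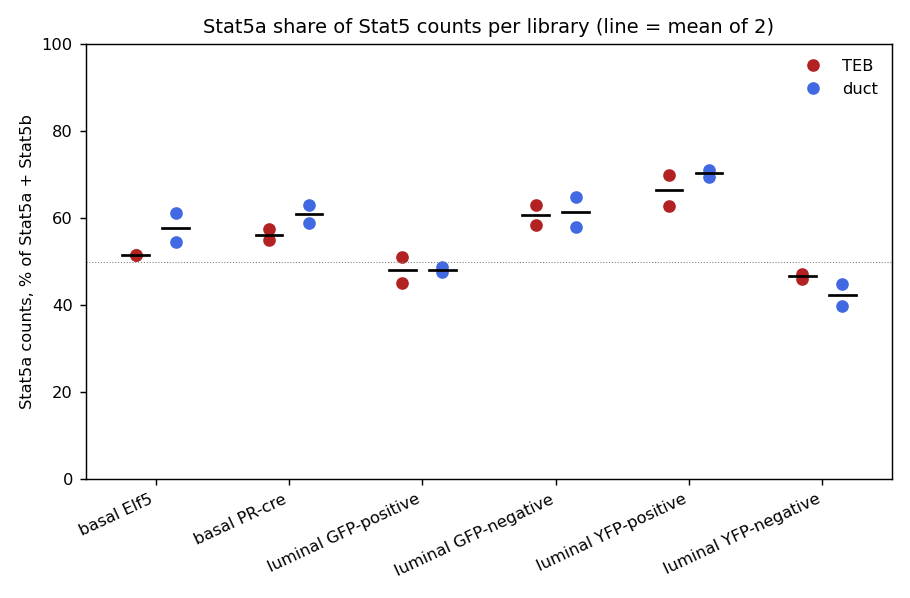
Stat5a counts as a percentage of Stat5a plus Stat5b counts in each library, by sorted population, with TEBs (red) left of ducts (blue) and black lines for means of 2. GFP-positive and YFP-negative libraries lie between 39.8% and 51.1%, and GFP-negative and YFP-positive libraries between 58% and 71.1%.

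The Stat5 pair is also where the counting itself bears on the values. The genes are divergently transcribed with 346 bases between them. The longest annotated coding sequence of each gene was used. These are 90.5% identical over the aligned bases, with a longest identical run of 324 bases (GENCODE M21, GRCm38). Of the 100-base windows of the Stat5a coding sequence, 11.6% also occur in Stat5b, and of the 50-base windows 26%. How reads with several matches were treated is not given in the sources used here, so levels of the pair are uncertain to that extent. A stretch of the shared run, identical in both genes, and the ends of these longest coding sequences, which diverge, are shown as examples. Other annotated transcripts of a gene may end differently, so the ends stand for these transcripts only. Each is written along the transcript, with no capitals because no motif is marked.

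Shared by Stat5a and Stat5b: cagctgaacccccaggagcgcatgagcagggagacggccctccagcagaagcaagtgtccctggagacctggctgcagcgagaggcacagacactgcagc
Stat5a coding end: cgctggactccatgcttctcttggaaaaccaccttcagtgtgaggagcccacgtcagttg
Stat5b coding end: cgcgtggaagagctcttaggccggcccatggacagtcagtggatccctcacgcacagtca

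Both Stat5 genes were lower in basal than in luminal cells, at -1.13 ± 0.15 for Stat5a and -1.18 ± 0.08 for Stat5b (2.19-fold and 2.26-fold, adjusted p = 9.45e-06 and 4.71e-10). Both also fell in basal TEBs. Stat5a had 42.2 and 47.3 CPM (Elf5 model) and 86.7 and 89.1 CPM (PR-cre model) in TEBs, against 83.9 and 119 CPM and 123 and 172 CPM in ducts. Stat5b had 40 and 44.3 CPM and 66.1 and 71.1 CPM in TEBs, against 70.3 and 75.3 CPM and 85.6 and 101 CPM in ducts. Within each model the TEB libraries were below the duct libraries for both genes. Over both models the differences were -0.96 ± 0.24 (adjusted p = 0.00446) and -0.61 ± 0.12 (adjusted p = 0.000636). In the Elf5 model alone they were called, at -1.18 ± 0.34 and -0.79 ± 0.18 (adjusted p = 0.0142 and 0.002). In the PR-cre model alone they were not, at -0.75 ± 0.34 and -0.44 ± 0.17 (adjusted p = 0.128 and 0.0771). In luminal cells Stat5b was lower in TEBs by a smaller amount, at -0.30 ± 0.09 (adjusted p = 0.0117), and Stat5a had -0.30 ± 0.17 (adjusted p = 0.183). Stat5a was higher in replicate 1 than in replicate 2 of every group. A fit with replicate number as a block called its luminal difference, as the closing section gives.

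Cish encodes a feedback inhibitor that STAT5 induces and that binds the activated receptors. It had the largest TEB effect of the members in basal cells. Basal TEBs had 38.5 and 42 CPM (Elf5 model) and 27.9 and 42.9 CPM (PR-cre model), against 194 and 195 CPM and 121 and 139 CPM in basal ducts. All 4 TEB libraries were below all 4 duct libraries. The difference was -2.08 ± 0.13 (4.21-fold lower, adjusted p = 4.82e-09), with 4.83-fold in the Elf5 model and 3.68-fold in the PR-cre model (adjusted p = 2.26e-07 and 2.36e-06).

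The Cish gene (chr9:107296659-107302784) carries 2 copies of the STAT5 motif at its start site. They lie at 0 to 8 and at 11 to 19 bases from the start, counted with the start base as 0, and 0.457% of all windows hold 2 or more. No other member with a window except Prlr holds a copy. The sequence is shown because Cish, known as a STAT5 target, had the largest basal TEB effect, and the capitals mark the outer triplets of each copy.

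Cish, chr9:107296656-107296681, plus strand: gttTTCctgGAAagTTCttgGAAatc

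Across gates, Cish was higher in YFP-positive than in YFP-negative cells by 0.67 ± 0.13 (1.59-fold, adjusted p = 0.000314), lower in GFP-positive than in GFP-negative cells, at -0.74 ± 0.13 (1.67-fold, adjusted p = 0.000129), and higher in basal than in luminal cells by 0.51 ± 0.08 (adjusted p = 1.28e-05) averaged over groups. The YFP difference lay in TEBs, with group means of 59.4 CPM in YFP-positive and 22.7 CPM in YFP-negative TEBs. In ducts these means were 33.5 and 34.7 CPM. For basal against luminal cells the direction in mean CPM was not the same in both tissues. TEBs had 37.8 CPM in basal libraries and 55.3 CPM in luminal libraries, and ducts had 162 CPM in basal libraries and 71.4 CPM in luminal libraries.

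Over all 4 luminal gates Cish fell in TEBs, at -0.30 ± 0.09 (adjusted p = 0.0137), with lower TEB values in 3 of the 4 gates. GFP-positive TEBs had 41.1 and 52.9 CPM, against 81.9 and 98.3 CPM in GFP-positive ducts, and YFP-negative TEBs had 22.5 and 22.8 CPM, against 33 and 36.5 CPM in YFP-negative ducts. YFP-positive TEBs, in contrast, had 59.3 and 59.5 CPM, against 32.1 and 34.8 CPM in YFP-positive ducts. GFP-negative TEBs had 80.5 and 104 CPM, against 114 and 141 CPM in GFP-negative ducts. No TEB group overlapped with its duct group, and YFP-positive cells were the only gate with TEBs above ducts.

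Over the GFP-positive and YFP-negative gates Cish fell in TEBs, at -0.78 ± 0.13 (1.71-fold lower, adjusted p = 0.000188). In YFP-positive cells alone it was higher in TEBs by 0.83 ± 0.18 (1.77-fold, adjusted p = 0.00949), a call that leaving out any of that gate's 4 libraries took to an adjusted p between 0.0505 and 0.0902. In GFP-negative cells the difference was -0.47 ± 0.18 (adjusted p = 0.0785). The hormone-sensing gates, which match by marker, thus had opposite signs. Their difference, YFP-positive minus GFP-negative, was 1.29 ± 0.25 (adjusted p = 0.0497), tested after the data were seen, at a share of 0.193% of all genes called, and it was lost in 22 of 30 other settings.

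The basal TEB effect on Cish minus the luminal one was -1.78 ± 0.16 (3.43-fold, adjusted p = 4.02e-07), and the effect over GFP-positive and YFP-negative gates minus that over GFP-negative and YFP-positive gates was -0.96 ± 0.18 (adjusted p = 0.00256). Cish was also lower in luminal cells of the PR-cre model than of the Elf5 model, at -1.25 ± 0.09 (2.38-fold lower, adjusted p = 2.99e-08), a comparison added after the data were seen in which 26% of all genes were called. Stat5a and Stat5b were higher there, at 0.51 ± 0.17 and 0.40 ± 0.09 (adjusted p = 0.0371 and 0.00228), and the Stat5a call was lost in 18 of 30 other settings. In basal cells of the PR-cre model against the Elf5 model, where 9.98% of all genes were called, Stat5b was the only member called, at 0.53 ± 0.12 (adjusted p = 0.0102), and Cish had -0.39 ± 0.13 (adjusted p = 0.0642). Leaving out replicate 2 of the basal Elf5 TEBs gave an adjusted p of 0.054 for Stat5b.

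Socs2, a feedback inhibitor best known in mice for restraining growth hormone signalling (chr10:95383903-95417321), was among the less abundant members per length, with the lowest mean over the 24 libraries, although not the lowest in every group. GFP-positive cells had 6.49 and 8.57 CPM in TEBs and 5.19 and 13 CPM in ducts, against 23 and 28.2 CPM in GFP-negative TEBs and 6.39 and 26.9 CPM in GFP-negative ducts. The difference was -1.31 ± 0.34 (2.49-fold lower, adjusted p = 0.00575), although the ducts overlapped. Leaving out replicate 1 of GFP-negative ducts, the one at 26.9 CPM, gave the largest shrinkage, to -0.65, and without the keratinocyte-bearing libraries it was -1.67. A fit to the compared groups alone did not call it (-1.32, adjusted p = 0.0865). YFP-positive minus YFP-negative cells gave 0.09 ± 0.34 (adjusted p = 0.886). Basal cells had more Socs2 than luminal cells, by 0.75 ± 0.20 (1.68-fold, adjusted p = 0.00415). Basal TEBs had between 15.4 and 25 CPM, against 22.3 to 36.7 CPM in basal ducts (-0.68 ± 0.34, adjusted p = 0.118), and DESeq2 called this difference (-0.74, adjusted p = 0.0383).

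Counted together, 5 of the 7 members fell and 0 rose in basal TEBs, where 22.8% of all genes fell and 20.9% rose, 43.6% in all. In luminal TEBs 3 fell and 0 rose, where 18.6% of all genes fell and 20% rose, 38.7% in all. Over GFP-positive and YFP-negative gates 1 member was called (32.6% of all genes called), and over GFP-negative and YFP-positive gates 2 were (24.6%). The second of these 2, beside Ghr, was Stat5b, at -0.37 ± 0.12 (adjusted p = 0.0371), a call lost in 13 of 30 other settings. Without the keratinocyte-bearing libraries it was -0.52, and Jak2 and Stat5a were called there too, at -0.42 and -0.74 (adjusted p = 0.0353 and 0.0366). A fit with replicate number as a block also called Stat5a over GFP-negative and YFP-positive gates. TEB effects differed between basal and luminal cells for 2 members (26.3% of all genes) and between the luminal sides for 2 (10.6%), Ghr and Cish each time. By gate, TEB effects were called for 5 members in basal Elf5 cells (36.4% of all genes), 2 in basal PR-cre cells (24.7%), 1 in GFP-positive cells (22.8%), 2 in GFP-negative cells (18.5%), 2 in YFP-positive cells (7.86%) and 1 in YFP-negative cells (18.4%). All calls in the last 3 of these gates were lost in at least 1 other setting. So were those of Jak2 and Stat5a in basal Elf5 cells. With 1 library left out, Cish in YFP-negative cells ranged from -0.74 to -0.59. Ghr in YFP-positive cells ranged from -1.39 to -1.16.

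Between reporter gates, GFP-positive cells had 2 members higher and 4 lower, where 24.1% of all genes were higher and 21.7% lower, 45.8% in all. YFP-positive cells had 4 higher and 1 lower, where 24.8% of all genes were higher and 25.5% lower, 50.3% in all. In basal against luminal cells all 7 were called, 3 higher and 4 lower, where 35.5% of all genes were higher and 32.2% lower, 67.7% in all. The median TEB effect of the members was -0.68 in basal cells and -0.30 in luminal cells, beside -0.04 and 0 over all genes tested. Whether the members differ from other genes as a set was not tested, so the counts are a description beside these shares.

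**Figure D5:**
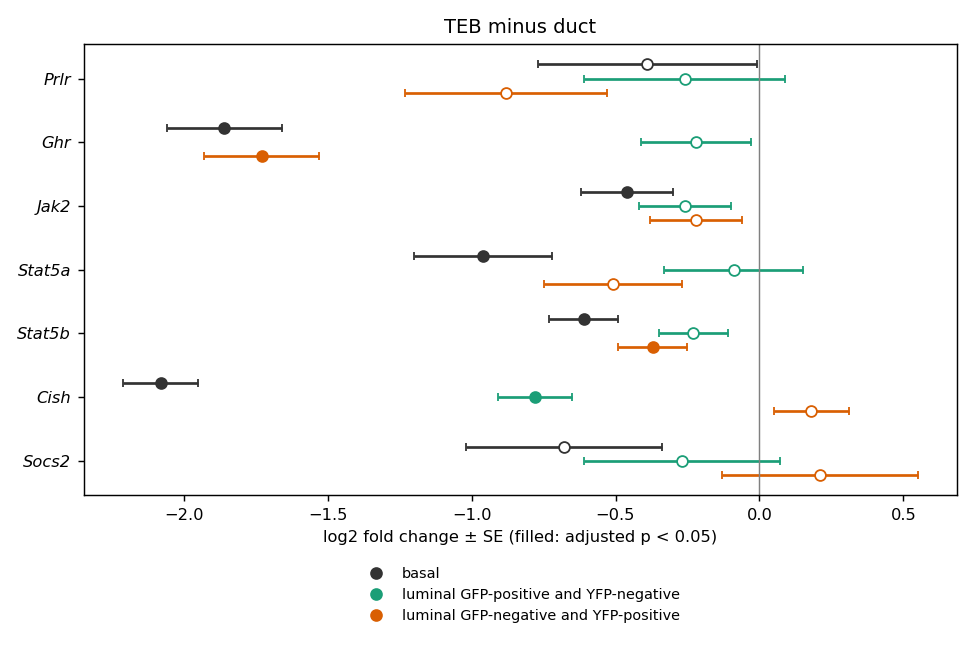
Log2 fold change of TEB minus duct, with its standard error, for each member in basal cells (black), in GFP-positive and YFP-negative luminal cells (green) and in GFP-negative and YFP-positive luminal cells (orange). Filled points passed an adjusted p of 0.05. For Ghr the basal and orange points lie near -1.86 and -1.73 and the green point at -0.22, whereas for Cish the green point is at -0.78 and the orange one at 0.18.

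Other measures moved with TEB origin, in the basal gate and in the luminal gates. The summed CPM of 10 basal markers was 7370 to 14300 in basal TEBs, against 31200 to 33900 in basal ducts. The sum of 8 luminal progenitor markers was 433 to 1140 in basal TEBs, against 107 to 176 in basal ducts. That of 8 hormone-sensing markers was 125 to 159, against 375 to 478. Csn3, a luminal progenitor marker, averaged 553 CPM in basal TEBs and 24.1 CPM in basal ducts. Elf5 went the other way, with means of 18.1 against 26.1 CPM (Elf5 model) and 1.2 against 2.42 CPM (PR-cre model). In the same order, Pgr had 27.8 against 38.5 and 20.7 against 20.9 CPM. The estrogen receptor gene Esr1 had 5.75 against 6.32 and 4.57 against 6.91 CPM. The sums thus do not stand for every gene of these cell types. The 10 genes of the S, G2 and M phases summed to 1890 to 2300 in basal TEBs, against 296 to 630 in basal ducts. Immune markers summed to 4.53 to 8.98 in basal TEBs, against 16.3 to 33.9 in basal ducts, and fibroblast markers to 750 to 1690, against 891 to 1560. In luminal cells the S, G2 and M genes summed to 1330 to 2950 in TEBs, against 246 to 751 in ducts. The luminal progenitor markers summed to 4980 and 5120 in GFP-positive TEBs, against 10200 and 13700 in GFP-positive ducts. The part of these differences in the basal and luminal results was not tested.

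The other genes of the pathway were described by lists of known members. No pituitary hormone could be followed: of the 5 ligand genes Prl, Gh, Igf1, Epo and Lep, 2 passed the filter on low counts. Lep, which encodes leptin, averaged 0.73 ± 0.546 CPM in basal TEBs and 12.5 ± 5.84 CPM in basal ducts (SD, n = 4 each), 21.3-fold lower in TEBs (edgeR adjusted p = 9.29e-05). Lep is also on the list of 10 adipocyte markers, which summed to 10.2 to 17.2 CPM in basal TEBs and 34.9 to 89.5 CPM in basal ducts. Of that list, the lipid-droplet gene Plin4 had 1.17 to 6.17 CPM in basal TEBs, against 21.2 to 39.1 CPM in basal ducts, and the fatty acid carrier gene Fabp4 had 2.64 to 6.98 CPM, against 2.19 to 32.8 CPM. Lpl had 2.78 to 10.3 CPM in basal TEBs, against 1.5 to 9.99 CPM in basal ducts. Pparg, Cfd, Cidec, Retn and Plin1 reached at most 1.77 CPM in any basal library, and Adipoq at most 0.173 CPM in TEBs, against 0 in all duct libraries. The part of adipocyte RNA in the Lep difference was not tested.

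In basal TEBs, where 22.8% of all genes fell and 20.9% rose, the related receptors and JAK-STAT genes were lower or not called. Of 14 related cytokine receptors 9 fell and 0 rose, and of 8 other Janus kinases and STATs 6 fell and 0 rose, with median log2 differences of -1.24 and -0.53. Stat6 had the largest fall of the second list, to 70.2 ± 8.62 CPM in TEBs, against 115 ± 8.45 CPM in ducts (adjusted p = 1.17e-06). Of 16 other pathway inhibitors 8 fell and 0 rose. Socs3, an inhibitor induced mainly through STAT3, averaged 208 ± 69.9 CPM in basal TEBs and 1840 ± 264 CPM in basal ducts, 9.11-fold lower (adjusted p = 3.33e-10). Among 12 adaptors and downstream kinases 7 fell, led by the insulin receptor substrate Irs2 at 3.87-fold, and 2 rose, led by Akt1 at 1.42-fold (adjusted p = 8.15e-08 and 0.000419).

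In luminal TEBs, where 18.6% of all genes fell and 20% rose, the same lists were mixed. Among receptors 2 rose and 6 fell. The leptin receptor Lepr rose 5.92-fold, to 50.4 ± 55.5 CPM in TEBs against 13.3 ± 15.3 CPM in ducts, and the oncostatin M receptor Osmr fell 2.38-fold (n = 8 each, edgeR adjusted p = 4.35e-05 and 1.2e-06). Among other Janus kinases and STATs 3 rose and 4 fell, with the largest fall in Stat4, which stayed under 1 CPM on average (adjusted p = 0.00202). Among inhibitors 2 rose, led by Ptpn11 at 1.18-fold, and 2 fell, led by Socs3 at 2.47-fold (adjusted p = 0.000212 and 1.02e-07). Among adaptors and downstream kinases 3 rose, led by Akt1 at 1.23-fold, and 4 fell, led by Irs1 at 2.19-fold (adjusted p = 0.00234 and 1.87e-08).

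The STAT5 target list of 16 genes, mainly milk protein genes and cell-cycle or survival genes, did not move with the receptors in a simple way. In GFP-positive cells 11 rose and 1 fell, with a median log2 difference of 4.84, where 24.1% of all genes were higher and 21.7% lower. Wap, a whey protein gene, averaged 6.4 ± 5.87 CPM in GFP-positive cells and 0.0561 ± 0.112 CPM in GFP-negative cells (adjusted p = 0.000144), and Bcl6 fell 1.92-fold (adjusted p = 0.00075). In YFP-positive cells 2 rose and 8 fell, where 24.8% of all genes were higher and 25.5% lower. Csn3, the kappa-casein gene, fell to 57.4 ± 51.9 CPM in YFP-positive cells, against 1730 ± 560 CPM in YFP-negative cells (n = 4 each, adjusted p = 1.81e-07). The target list was thus higher on the side with less Prlr and more Ghr. It includes Elf5, on whose reporter the GFP gate was sorted.

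By TEB origin, 2 STAT5 targets rose and 5 fell in basal cells, and 1 rose and 8 fell in luminal cells. Of all genes, 20.9% rose and 22.8% fell in basal cells, and 20% rose and 18.6% fell in luminal cells. In basal TEBs Csn3 rose 23.9-fold, to 553 ± 352 CPM against 24.1 ± 18.6 CPM in ducts (n = 4 each, edgeR adjusted p = 1.26e-06). It is also on the luminal progenitor list, whose sum was higher there. Lalba, the alpha-lactalbumin gene, fell in luminal TEBs to 25.3 ± 39.5 CPM, against 703 ± 1170 CPM in ducts (n = 8 each, adjusted p = 9.88e-07). Ccnd1, which encodes cyclin D1, rose 1.78-fold in luminal TEBs (adjusted p = 0.000491).

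Between reporter gates the other lists held calls in both directions. Of all genes, 24.1% were higher and 21.7% lower in GFP-positive cells, and 24.8% higher and 25.5% lower in YFP-positive cells. In GFP-positive cells the receptor list had 3 higher and 8 lower, with Il4ra at 2.33-fold higher and Lepr at 10.6-fold lower (adjusted p = 2.2e-09 and 3.12e-05). In YFP-positive cells it had 6 higher and 5 lower, with Lepr at 15.1-fold higher and Ifnar2 at 1.92-fold lower (adjusted p = 2.18e-05 and 4.29e-08). Lepr, another receptor that signals through JAK2, was thus on the side of Prlr in both models. Socs3 was lower in GFP-positive cells by 3.22-fold and higher in YFP-positive cells by 6.19-fold, while Socs7 was higher in GFP-positive cells by 2.88-fold and lower in YFP-positive cells by 2.39-fold (adjusted p = 6.85e-08, 5.37e-10, 1.41e-10 and 9.49e-10). Gab2, an adaptor, was higher in GFP-positive cells by 7.24-fold, and Irs2 was lower in YFP-positive cells by 9.25-fold (adjusted p = 4.36e-10 and 2.7e-10).

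Between basal and luminal cells, 7 of the 8 other Janus kinases and STATs were lower in basal cells and 0 higher. Of all genes, 32.2% were lower and 35.5% higher. Jak3 had 3.29 ± 1.33 CPM in basal libraries (n = 8) and 45.4 ± 19.9 CPM in luminal libraries (n = 16), 13.3-fold lower (edgeR adjusted p = 1.58e-14). The inhibitor list was even, with 7 higher, led by Socs1 at 6.36-fold, and 7 lower, led by Ptpn6 at 2.78-fold (adjusted p = 2.81e-11 and 1.35e-11). Gab2 was 16.7-fold lower in basal cells (adjusted p = 7.58e-15). Of the STAT5 targets 2 were higher and 10 lower.

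The genes whose 12 group means of log2 CPM were most like those of each member were found by Pearson correlation, as a description of 12 points that share models and sorts. Prlr was closest to Slc44a4 (0.994), Capn8 (0.994) and Tmprss4 (0.993). Ghr was closest to the thyroid hormone receptor gene Thrb (0.979). Jak2 was closest to Cog3 (0.987), Stat5a to Txnl4b (0.973), Stat5b to Mettl27 (0.959), Cish to Cldn5 (0.935), which averaged 0.287 CPM, and Socs2 to Mbnl1 (0.903). Among the members themselves the highest value was 0.84, between Prlr and Jak2, and the lowest -0.55, shared by Ghr with Jak2 and by Stat5b with Socs2. Cish, the STAT5-induced member, had -0.03 with Stat5a and -0.13 with Prlr.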

How the data were processed

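The authors deposited whole-number counts per gene for 24 libraries. Per the submitters' processing notes, featureCounts and the mm10 build were used; aligner, annotation release, strand setting and treatment of multiply matching reads are not stated in the sources used here. The kit does not mark strand, and Prlr, Ghr and Socs2 each overlap a predicted RefSeq gene whose reads cannot be told apart. Groups and replicate numbers came from sample titles.

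Symbols came from RefSeq for 25275 of 27179 genes. edgeR 4.0.16 (R 4.3.3, filterByExpr with minimum count 10 and minimum total 15, TMM scaling) fitted 12 group means to all 24 libraries in one robust quasi-likelihood model with 12 residual degrees of freedom, leaving 18109 genes. Standard errors are the log2 change divided by the square root of F. Contrasts average log2 values. A count of 3 corresponds to 0.057 to 0.096 CPM; floors cover counting error only. Replicates of a group differed beyond counting noise (chi-square over its degrees of freedom, 18 to 174.5), so none was merged. The code was tested on simulated data.

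Members, lists and tests were chosen with earlier results of these data known. Named are all members, each list's largest called rise and fall, and each member's 3 most similar genes, of which the closest or those with known roles are printed. Some genes that this rule names are not reported here. Alternatives were DESeq2 1.42.0, RLE scaling, no filter, a replicate block, only the compared groups, no keratinocyte-bearing libraries and each library left out. Over all genes, differences of replicate 1 minus replicate 2 correlated at 0 to 0.15 between groups of a model, so numbers were not taken as pairs. Stat5a, however, was higher in replicate 1 than in replicate 2 of every group, which the main fit ignores.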

Additional observations from a re-analysis of the deposited data

Results flagged for a closer look

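Several member genes had effects that differed between groups in a test of the difference itself (edgeR's quasi-likelihood test, adjusted over 18109 genes). For Ghr the TEB effect was lower in basal than in luminal cells by -0.88 on the log2 scale, and the effect over GFP-positive and YFP-negative gates exceeded that over GFP-negative and YFP-positive gates by 1.51. For Cish the same differences were -1.78 and -0.96. Leaving out replicate 1 of GFP-negative ducts gave the Ghr difference nearest 0 between basal and luminal cells (-0.7), and leaving out replicate 2 the one nearest 0 between luminal sides (1.06).

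The signed difference YFP-positive minus YFP-negative, less the difference GFP-negative minus GFP-positive, was 1.37 for Stat5a and 0.7 for Stat5b, where model and preparation cannot be told apart. For Stat5a the larger reporter effect was in the PR-cre model, and for Stat5b in the Elf5 model (-0.18 for YFP-positive minus YFP-negative and 0.88 for GFP-positive minus GFP-negative). The TEB effect on Cish in YFP-positive cells minus that in GFP-negative cells was 1.29, with each gate's 2 TEB libraries on opposite sides of its 2 duct libraries. This comparison was chosen because of that pattern and passed the threshold by a margin that most other settings removed.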

How the results depend on the processing

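Other settings were compared for 82 member differences, which were not all those tested. Every called difference was included. For TEB effects in single gates, differences between TEB effects and differences between models, uncalled differences were included for Cish and Ghr only. The share called is therefore raised by this choice, and the sign changes below cover the 82 only. Of these 82, 53 were called, 38 of them under every other setting run for them, 15 not under at least 1, and 0 called differences changed sign. Uncalled differences that changed sign were Socs2 in luminal TEBs with the replicate block (0.05), Stat5a in GFP-positive cells without the keratinocyte-bearing libraries (-0.14) and Socs2 over GFP-negative and YFP-positive TEBs without them (-0.16). When 1 library was left out, uncalled TEB effects crossed 0 for Prlr in basal cells (-0.78 to 0.27) and over GFP-positive and YFP-negative gates (-0.49 to 0), for Socs2 in luminal cells (-0.22 to 0.3), over GFP-positive and YFP-negative gates (-0.56 to 0.12) and over the other luminal gates (-0.14 to 0.91), for Stat5a over GFP-positive and YFP-negative gates (-0.24 to 0.04), for Jak2 over GFP-negative and YFP-positive gates (-0.4 to 0.02) and for Ghr in YFP-negative cells (-0.15 to 0). Stat5a in GFP-positive against GFP-negative cells (-0.16 to 0.35) and the difference of reporter effects for Cish (-0.16 to 0.04) also crossed 0. Each difference had 30 other settings, or 29 for basal minus luminal cells and for basal minus luminal TEB effects, which had no fit to the compared groups alone. The causes were not tested.

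Members called moved from 3 to 5 in luminal TEBs with DESeq2 and from 3 to 5 over left-out libraries, the 5 without replicate 2 of GFP-negative ducts. The count of differing basal and luminal TEB effects was 2 to 5 over left-out libraries, the 5 without replicate 1 of GFP-negative ducts. Over GFP-positive and YFP-negative TEBs it was 4 with only the compared groups and 1 to 2 over left-out libraries. Over GFP-negative and YFP-positive TEBs it was 4 with DESeq2, 4 without the keratinocyte-bearing libraries and 1 to 4 over left-out libraries. For basal PR-cre minus Elf5 cells it was 3 with DESeq2, with the replicate block, without the keratinocyte-bearing libraries and with only the compared groups, and 0 to 3 over left-out libraries.

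Counts of all genes called moved by over 1.5 times in these comparisons. DESeq2 called 3346 genes, against 1922, for the difference between luminal TEB effects, 2829 against 1808 for basal PR-cre minus Elf5 cells, 2594 against 1424 for YFP-positive TEBs, and 3062 against 1676 for the difference of reporter effects. With only the compared groups, 105 genes were called in GFP-negative TEBs, against 3351, and 2424 in YFP-positive TEBs. Over left-out libraries the counts were 1141 to 2360 for basal PR-cre minus Elf5 cells, 2328 to 5195 in basal PR-cre TEBs (4474 with all libraries), 2058 to 4807 in GFP-positive TEBs (4120 with all libraries), 1371 to 4177 in GFP-negative TEBs, 452 to 2083 in YFP-positive TEBs, 1757 to 4240 in YFP-negative TEBs (3341 with all libraries) and 1098 to 2879 for the difference of reporter effects. YFP-positive minus GFP-negative TEB effects gave 35 genes, 616 with DESeq2, 76 with the replicate block, 185 without the keratinocyte-bearing libraries, 1 with only the compared groups and 2 to 821 over left-out libraries.

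Among the 82 member differences compared, the replicate block removed 0 calls and added 4. Stat5a was called in luminal TEBs (-0.31, adjusted p = 0.0181) and over GFP-negative and YFP-positive TEBs (-0.51, adjusted p = 0.012). Socs2 was called in basal TEBs (-0.67, adjusted p = 0.0388) and Cish in basal PR-cre minus Elf5 cells (-0.5, adjusted p = 0.0427). Over all genes, differences of replicate 1 minus replicate 2 correlated at 0 to 0.15 over 30 pairs of groups within a model, with 2 pairs over 0.1. Numbers were therefore not taken as pairs in the main fit. Stat5a was nevertheless higher in replicate 1 of every group, so its tests without the block leave out a difference tied to replicate number. The labels name no animals, groups hold 2 libraries, and depth did not limit the members, each of which had at least 72 counts in every library.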
